A study of Arabidopsis thaliana with 15 samples.

Results

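FWA (AT4G25530), SDC (AT2G17690) and QQS (AT3G30720) are genes known to be kept silent or low by DNA methylation in front of their coding sequence, at repeats or transposon-derived sequence. They were chosen by name, as 3 of the 37899 genes and pseudogenes annotated on the 5 chromosomes, and each was examined over its TAIR10 gene body plus 1 kb upstream, as a whole and in 100-bp steps. The study followed DNA methylation (mC) by MethylC-seq, which is whole-genome bisulfite sequencing, through germination of Arabidopsis thaliana Col-0. All libraries were wild type and were made from whole seeds or seedlings of a single seed batch, with 3 libraries at each of 5 time points. Seeds that had been kept dry in the dark for 14 days were taken at 0 h, seeds chilled for 48 h at 4 °C in the dark were taken as 48 h S, and chilled seeds then moved to continuous light at 22 °C were taken after 6 h (6 h SL), after 24 h (24 h SL) and after 48 h (48 h SL). The question asked of the 3 genes was whether CG methylation was kept while CHH methylation fell.

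Plant cytosine methylation is read in 3 sequence contexts, CG, CHG and CHH, where H is A, C or T. CG methylation is copied at each round of replication by MET1, CHG methylation is kept by CMT3 through a loop with a histone mark, and CHH methylation has to be renewed by DRM2, guided by small RNAs in RNA-directed DNA methylation, or by CMT2. FWA encodes a homeodomain transcription factor of the HD-ZIP IV family, is expressed from the maternal copy in the endosperm, and delays flowering when it loses methylation in the plant body. SDC encodes an F-box protein that is held silent by non-CG methylation of tandem repeats in its promoter, and its release leads to curled leaves. QQS is an orphan gene found only in Arabidopsis thaliana whose small protein affects the split of carbon and nitrogen between starch and protein, and its expression is known to vary among Col-0 stocks with the methylation of its promoter. RNA was not analysed here, so the values describe methylation and not silencing.

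All 3 genes lie on the plus strand. FWA spans chr4:13038360-13042464, its first 2 exons are noncoding, and its coding sequence starts 952 bases after the transcription start. SDC spans chr2:7682162-7684083 and its coding sequence starts 656 bases after the start. QQS spans chr3:12349047-12349933, has 3 annotated transcripts, and its coding sequence starts 414 bases after the start. Positions below are counted in bases from the transcription start, which is 0, with negative values upstream. In the 3 regions, direct repeats were searched by comparing each sequence with itself at shifts of 20 to 250 bases, and overlapping windows of 20 bases with at least 80% identity were merged into 36 stretches, 7 in FWA, 20 in SDC and 9 in QQS. The identity over the whole merged stretch was at least 80% in 5, 13 and 5 of them, and in every stretch of at least 40 bases. SDC carried an array with a period of 32 bases, in which a stretch of 154 bases from -259 to -106 was 89.6% identical to the sequence 32 bases further on. FWA carried a stretch of 135 bases from -30 to 104 that was 90.4% identical to the sequence 211 bases downstream, and upstream of the start a stretch of 54 bases from -116 to -63 that was 85.2% identical to the sequence 45 bases further on. QQS had only 1 repeat of at least 40 bases, of 44 bases from 0 to 43 with a shift of 31 bases and 81.8% identity. A window of 50 bases with at least 80% identity to a shifted copy was found in FWA and SDC but not in QQS, and in 5809 of all 37899 gene regions (15.3%).

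The successive units of the SDC array are shown because the bins over them had the largest CHH change of that gene, and capitals mark bases that differ from unit 1. Units 2 to 5 shared 26, 26, 27 and 26 of their 32 bases with unit 1.
SDC unit 1, -259 to -228: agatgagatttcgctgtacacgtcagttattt
SDC unit 2, -227 to -196: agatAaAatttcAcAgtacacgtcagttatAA
SDC unit 3, -195 to -164: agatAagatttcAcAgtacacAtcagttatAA
SDC unit 4, -163 to -132: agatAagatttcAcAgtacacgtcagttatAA
SDC unit 5, -131 to -100: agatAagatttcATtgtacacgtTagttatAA
The FWA copies that begin intron 1 and follow exon 2 are shown because short reads are hard to place between such near-identical copies. In them 43 of their 47 bases are identical and capitals mark the 4 that differ.
FWA copy in intron 1, 58 to 104: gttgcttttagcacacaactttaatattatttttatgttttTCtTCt
FWA copy in intron 2, 269 to 315: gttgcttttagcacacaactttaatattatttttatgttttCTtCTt

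To show the change base by base, the stretches below are printed for 0 h and for 48 h SL each summed over its 3 libraries. A capital C is a cytosine of the plus strand and a capital G a cytosine of the minus strand with at least 50% methylated calls, among cytosines with at least 10 calls at both times, and all sequences are of the plus strand from TAIR10.
SDC tandem repeats, chr2:7681903-7682088, 0 h: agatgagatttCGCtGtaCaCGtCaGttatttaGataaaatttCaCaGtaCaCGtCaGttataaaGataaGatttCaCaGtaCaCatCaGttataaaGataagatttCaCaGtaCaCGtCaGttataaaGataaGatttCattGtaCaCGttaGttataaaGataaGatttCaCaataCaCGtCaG
SDC tandem repeats, chr2:7681903-7682088, 48 h SL: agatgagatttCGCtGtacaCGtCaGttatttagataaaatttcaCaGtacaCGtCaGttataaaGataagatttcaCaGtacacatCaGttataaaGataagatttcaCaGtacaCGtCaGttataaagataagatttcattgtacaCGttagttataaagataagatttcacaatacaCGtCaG
In this SDC stretch, 53 cytosines were in capitals at 0 h and 32 at 48 h SL. All 12 covered CG cytosines and all 18 covered CHG cytosines were in capitals at both times, whereas 23 of 27 CHH cytosines were at 0 h and 2 at 48 h SL.
FWA upstream of the start, chr4:13038200-13038359, 0 h: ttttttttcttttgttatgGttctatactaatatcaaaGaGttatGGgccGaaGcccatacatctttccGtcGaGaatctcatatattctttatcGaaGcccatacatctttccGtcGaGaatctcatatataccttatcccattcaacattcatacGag
FWA upstream of the start, chr4:13038200-13038359, 48 h SL: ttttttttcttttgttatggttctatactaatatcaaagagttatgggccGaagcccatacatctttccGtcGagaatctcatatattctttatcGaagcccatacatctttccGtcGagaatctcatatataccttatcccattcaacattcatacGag
In this FWA stretch, all 7 covered CG cytosines were in capitals at both times, and 9 of 13 covered CHH cytosines were at 0 h against 0 at 48 h SL. All covered cytosines of the stretch were of the minus strand. Another 37 cytosines, among them all those of the plus strand, had too few calls to be shown. A lower-case c here therefore does not mark an unmethylated cytosine.
FWA intron 1, chr4:13038418-13038519, 0 h: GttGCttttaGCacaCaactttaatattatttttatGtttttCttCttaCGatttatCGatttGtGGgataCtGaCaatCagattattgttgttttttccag
FWA intron 1, chr4:13038418-13038519, 48 h SL: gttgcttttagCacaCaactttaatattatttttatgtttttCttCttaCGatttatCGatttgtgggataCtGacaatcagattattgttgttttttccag
In FWA intron 1, the 4 CG cytosines kept their capitals, CHG capitals went from 3 to 2 of 6, and CHH capitals from 13 to 4 of 18.
QQS, -446 to -347, chr3:12348601-12348700, 0 h: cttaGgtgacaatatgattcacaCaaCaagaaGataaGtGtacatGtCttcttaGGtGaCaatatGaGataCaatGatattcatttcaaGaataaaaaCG
QQS, -446 to -347, chr3:12348601-12348700, 48 h SL: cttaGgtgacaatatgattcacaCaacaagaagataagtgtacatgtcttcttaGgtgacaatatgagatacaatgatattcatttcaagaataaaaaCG
In this QQS stretch, both CG cytosines were in capitals at both times, and CHH capitals went from 17 to 3 of 29. It is the 1 of 18 tested QQS bins that was called lower in CHH, so its fall does not stand for the whole gene. The SDC and FWA stretches also lay mostly over bins called lower in CHH.

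The libraries held 97238997 to 428839380 methylation calls on the 5 chromosomes, with the fewest in replicate 1 of 24 h SL. CHH methylation of 555296 bins that looked unmethylated, a stand-in for failed bisulfite conversion and stray calls, was 0.218 to 0.305% at 0 h and 0.334 to 0.690% at 48 h SL, the highest values being those of replicates 1 and 2 of 48 h SL (0.582 and 0.690%). CHH levels under 1% at 48 h SL therefore lie near this background. Replicates were 3 libraries per time point, so p-values measure the spread between these libraries. Whole seeds and seedlings were used, so a change of level within cells and a change in the mix of cells cannot be told apart.

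In each gene, CHG and CHH methylation was concentrated before the coding sequence, in a stretch that covered the transcription start. This stretch, called the methylated part below, was taken as the 100-bp bins before the coding sequence whose CG level over all 15 libraries together was at least 50%. Bins from the coding sequence on were left out by this choice, though 2 in FWA and 1 in SDC reached that CG level. The methylated part held 5 bins from -159 to 340 in FWA, 10 bins from -961 to 238 in SDC and 12 bins from -946 to 353 in QQS. In SDC and QQS not every bin of that span qualified. In these 2 genes the part began at the first whole bin examined, so its upstream end there was set by the 1 kb limit. Deposited CHG regions reached further upstream, to -1176 in SDC and -1687 in QQS. Since CG calls chose the bins, a high CG level in it is not a finding, while its CHG and CHH levels and the changes with time were not used. Outside it, CHH methylation at 0 h was 0.648% ± 0.182 (SD, n = 3) in FWA and 6.52% ± 1.68 (SD, n = 3) in SDC. The SDC value also covers bins that lie between those of the methylated part. The coding sequence had CHH levels at 0 h of 0.178%, 0.242% and 0.673% in FWA, SDC and QQS, near the background.

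**Figure D1:**
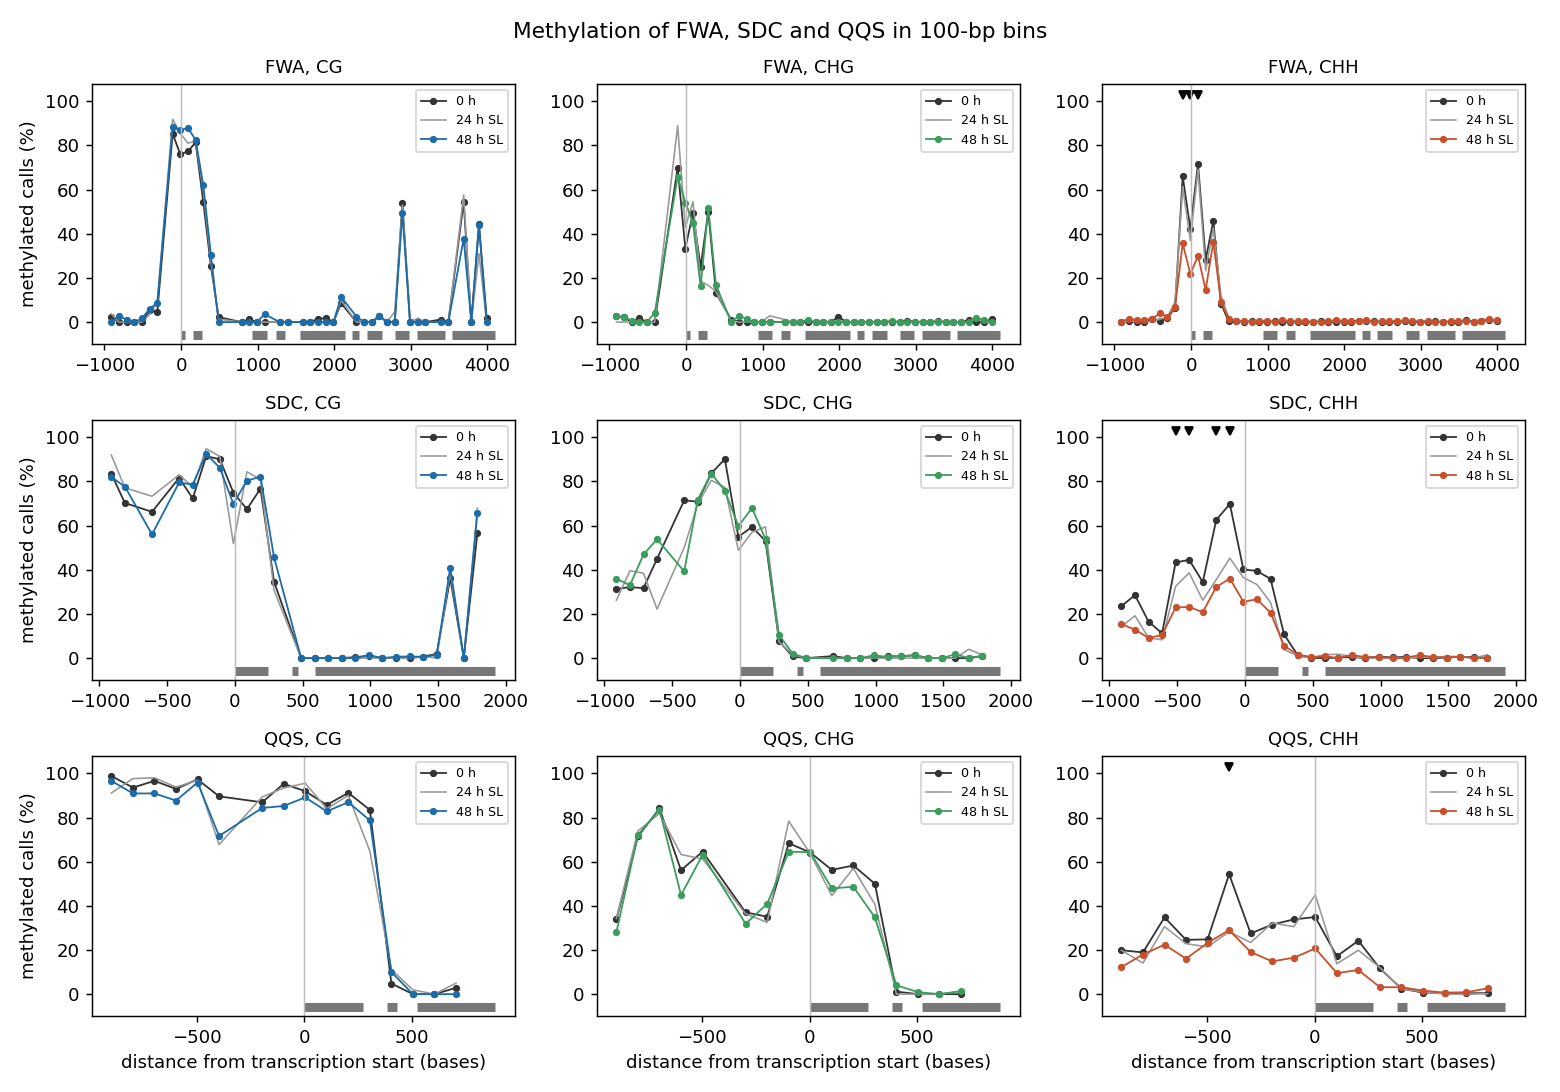
Share of methylated calls (%) in 100-bp bins against distance from the transcription start (bases), with 1 row per gene and 1 column per context, for the summed libraries of 0 h (black), 24 h SL (thin grey) and 48 h SL (coloured); grey bars are exons and black triangles mark bins called lower at 48 h SL. In the methylated parts the CG and CHG lines of 0 h and 48 h SL lie closer together than the CHH lines, which separate by as much as 41.7 points in the FWA bin from 41 to 140.

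In the methylated parts, FWA had the highest CHH level of the 3 genes and kept 54.9% of it at 48 h SL, without a loss of CG methylation. CHH methylation of its methylated part was 53.8, 54.4 and 48.5% in the 3 libraries of dry seeds, 53.4, 53.7 and 50.3% after chilling, 54.5, 61.8 and 60.5% after 6 h of light, 45.5, 46.4 and 52.6% after 24 h of light, and 29.8, 27.8 and 28.4% after 48 h of light. All 3 libraries of 48 h SL were below each of the other 12, and the largest step fell between 24 h SL and 48 h SL. The mean went from 52.2% ± 3.3 to 28.7% ± 1.1 (SD, n = 3), a change of -23.6 points (exact permutation test of 48 h SL against the other 12 libraries, two-sided p = 0.0022, the smallest these numbers of libraries allow). CG methylation was 76.0, 72.4 and 78.3% in dry seeds and 81.8, 83.0 and 79.2% after 48 h of light. Those CG values did not overlap, the later ones being higher by 5.79 points, but 2 of the 3 libraries of 24 h SL were as high (82.4, 74.2 and 86.0%) and the exact permutation test against the other 12 libraries gave p = 0.14. CHG methylation, at 38.7, 41.2 and 32.9% and then 39.5, 32.6 and 27.9%, overlapped between the 2 times. The part is short and poorly covered, with 312 to 1417 CHH calls per library over its 120 CHH cytosines. On its less covered plus strand alone, CHH methylation overlapped between 0 h and 48 h SL.

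SDC kept 57.3% of its CHH methylation at 48 h SL, with lower values already at 24 h SL, while CG and CHG methylation overlapped between the start and the end. CHH methylation of its methylated part was 37.4, 39.6 and 35.8% in dry seeds, 34.4, 35.8 and 33.2% after chilling, 33.2, 32.2 and 37.6% after 6 h of light, 32.8, 25.5 and 27.6% after 24 h of light, and 24.0, 21.5 and 19.2% after 48 h of light. The libraries of 24 h SL already lay below all those of 0 h (p = 0.1 by the exact permutation test, which cannot go lower with 3 against 3), and those of 48 h SL lay below all other 12 libraries (exact permutation test, p = 0.0022). The mean fell from 37.6% ± 1.9 to 21.6% ± 2.4 (SD, n = 3). CG methylation was 81.1, 77.4 and 79.6% in dry seeds and 82.7, 78.7 and 77.3% after 48 h of light. CHG methylation, on which SDC silencing is known to depend together with CHH, was 65.5, 66.7 and 64.7% and then 69.3, 63.6 and 60.1%. In both contexts the 2 time points overlapped, with differences of means of 0.19 points for CG and -1.33 points for CHG. Each library gave 826 to 3389 CHH calls here.

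In its methylated part, QQS had the highest CG and the lowest CHH level of the 3 genes, and its CG methylation also was somewhat lower at the end. CHH methylation of its methylated part was 30.8, 24.9 and 27.1% in dry seeds, 24.4, 31.0 and 28.6% after chilling, 26.3, 24.4 and 22.8% after 6 h of light, 22.7, 20.9 and 27.1% after 24 h of light, and 17.7, 17.1 and 15.7% after 48 h of light. Libraries of the first 4 time points overlapped, and those of 48 h SL lay below all 12 (exact permutation test, p = 0.0022). The mean fell from 27.6% ± 3.0 to 16.9% ± 1.0 (SD, n = 3), leaving 61.1%. CG methylation was 92.2, 91.3 and 92.8% in dry seeds, 88.9, 89.1 and 89.0% after chilling and 87.3, 84.2 and 87.2% after 48 h of light. The libraries of 0 h were above all those of 48 h S and of 48 h SL, and 93.7% of the CG level was left at 48 h SL (exact permutation test against the other 12 libraries, p = 0.022). CHG methylation overlapped, at 54.8, 59.7 and 62.0% and then 53.5, 58.3 and 50.5%. The part gave 930 to 3997 CHH calls per library.

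**Figure D2:**
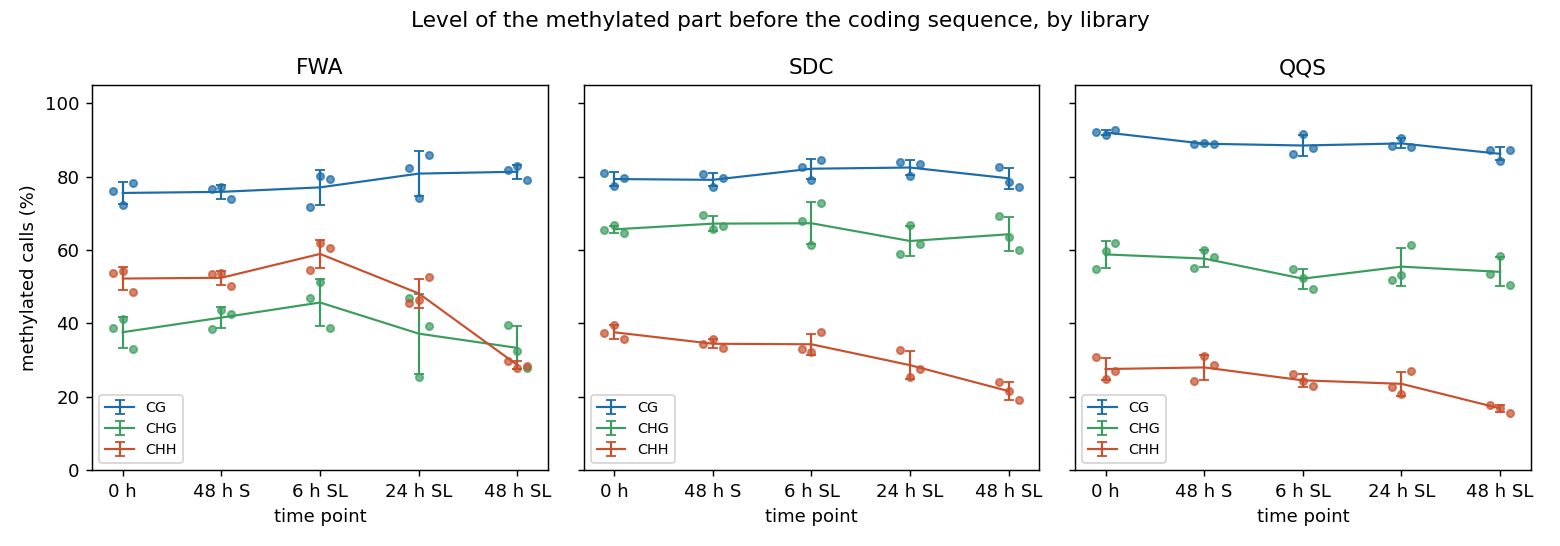
Level of the methylated part before the coding sequence (% methylated calls) by time point for CG (blue), CHG (green) and CHH (red) in each gene; points are single libraries, lines join the means, and bars are the SD of 3 libraries. CHH means at 48 h SL were 28.7, 21.6 and 16.9% in FWA, SDC and QQS, with all 3 libraries below the 12 earlier ones in each gene.

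To ask directly whether CHH and CG changed by different factors, the log2 ratio of the CHH to the CG level was formed in each library. From 0 h to 48 h SL the ratio in the methylated part changed by -0.97 in FWA, -0.81 in SDC and -0.61 in QQS on the log2 scale. In each gene the 3 libraries of 48 h SL lay below all other 12, for which the exact permutation test gave p = 0.0022 (3 against 3 libraries of 0 h, p = 0.1, the smallest possible). Over the whole regions, which also hold the bases outside the methylated parts, the changes were -0.63, -0.83 and -0.59. Why the FWA values of the part and of the whole region differed was not tested. The log2 ratio of CHG to CG changed by -0.29, -0.04 and -0.03, and the libraries of 0 h and 48 h SL overlapped in all 3 genes. For this ratio the exact permutation test against the other 12 libraries gave p = 0.046 in FWA, 0.91 in SDC and 0.95 in QQS. These ratios belong to a family of 20 that were formed for the 3 genes.

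**Figure D3:**
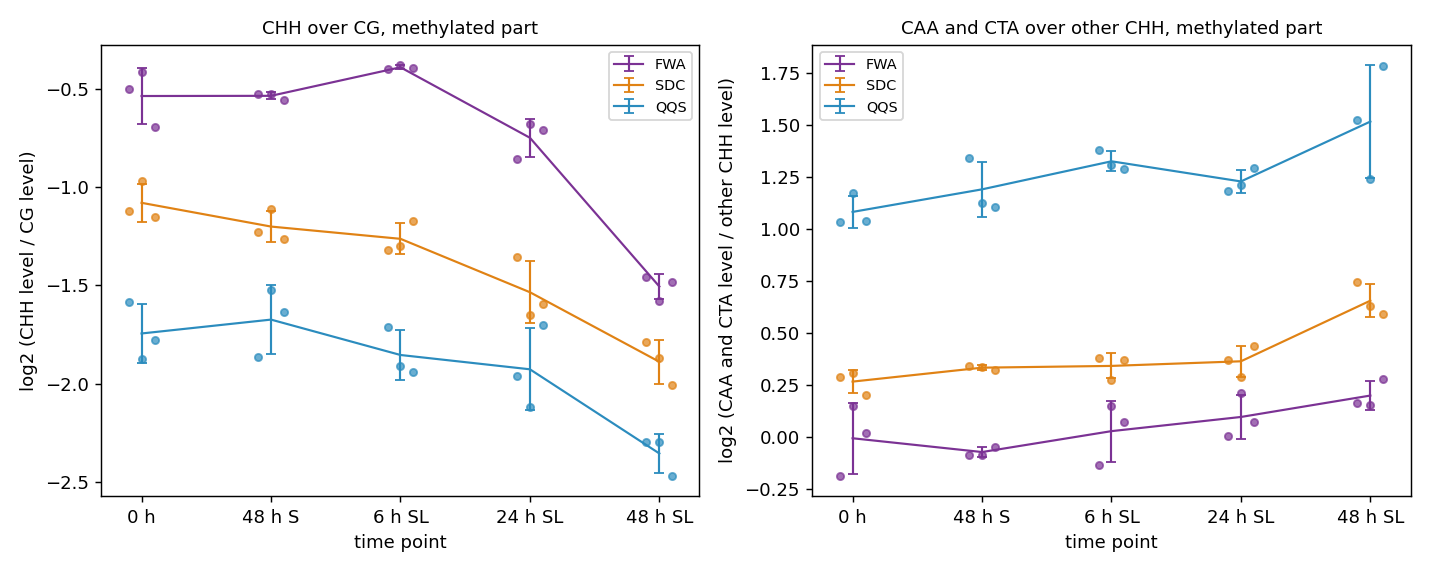
Log2 ratio of the CHH to the CG level (left) and of the level at CAA and CTA to that at other CHH cytosines (right) in the methylated part by time point; points are single libraries, lines join the means, and bars are the SD of 3 libraries. The left ratio changed by -0.97, -0.81 and -0.61 between 0 h and 48 h SL in FWA, SDC and QQS, and the right one by 0.21, 0.39 and 0.43.

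The same change was tested over the whole regions, in a model fitted to all annotated gene regions with p-values adjusted over all of them. Between 0 h and 48 h SL, CHH methylation was called lower in 3 of the 3 genes, where 24.1% of all 37560 gene regions were called lower. FWA went from 5.26% ± 0.26 to 4.12% ± 0.53 (SD, n = 3). Its change was -1.14 points (SE 0.44, adjusted p = 0.046 by the quasi-binomial model). SDC went from 18.9% ± 1.9 to 10.9% ± 2.7 (SD, n = 3). Its change was -7.93 points (SE 1.56, adjusted p = 0.0013). QQS went from 19.5% ± 2.1 to 12.2% ± 1.8 (SD, n = 3). Its change was -7.36 points (SE 1.43, adjusted p = 0.00069). The FWA call was lost with limma on logit levels (adjusted p = 0.10) and whenever 1 library other than replicate 1 of 48 h SL was left out, with changes between -1.27 and -0.93 points, whereas the calls of SDC and QQS held under both.

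CG methylation of the whole regions was called lower in 0 of the 3 genes, against 6.47% of the 37437 regions tested. It was called higher in FWA, 1 of 3, where 0.548% of all regions were called higher. The FWA region went from 24.7% ± 2.0 to 29.7% ± 2.0 (SD, n = 3). This was a change of 5.03 points (SE 1.42, adjusted p = 0.036), which shrank to 0.35 points when each cytosine had equal weight and was not called with limma (adjusted p = 0.25) or without any 1 library other than replicate 3 of 48 h SL (3.89 to 5.73 points). SDC differed by 1.21 points with a 95% confidence interval of -6.0 to 8.42 points, so a difference of that size was not detectable at this depth. Its direction turned to -4.14 points without replicate 1 of 48 h SL, which stood at 51.4% where replicates 2 and 3 stood at 37.2 and 33.5%, and to -0.15 points without replicate 1 of 0 h, and it was 4.81 points without replicate 3 of 48 h SL. QQS differed by -4.83 points, with an interval of -9.65 to -0.01 points and an adjusted p of 0.48. It was called lower when only the 1 kb upstream was used (-6.77 points, adjusted p = 0.016) or when replicate 1 of 48 h SL was left out (-7.81 points, adjusted p = 0.022). CHG methylation was called in none of the 3 genes, with adjusted p of 0.31, 0.60 and 0.25 for FWA, SDC and QQS in the quasi-binomial model, where 2.00% of all regions were called lower and 0.323% higher. None of the 3 was called in CHG by limma either. Over the whole QQS region CHG methylation differed by -4.90 points, with a 95% confidence interval of -9.11 to -0.69 points. Its libraries of 0 h and 48 h SL did not overlap (exact permutation test, p = 0.1 for 3 against 3 and p = 0.20 against the other 12).

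Among the 8762 gene regions with a mean CHH level of at least 5%, 8038 were called lower at 48 h SL and 0 higher, and the median region kept 66.2% of its level of 0 h (quartiles 59.4 and 72.8%). SDC kept 58.0% and QQS 62.3%, and 20.1% and 35.7% of these regions kept less. FWA kept 78.3% over its whole region, and 92.9% of regions kept less. QQS thus lay between the quartiles and SDC just below the lower one. The FWA region is 5105 bases long, and its non-CG methylation was concentrated in 5 bins.

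In 100-bp steps, 8 of the 96 CHH bins tested in the 3 genes were called lower at 48 h SL by at least 20 points and 0 were called higher, where 1.94% of all 1124550 bins were called lower. They were 3 of 50 bins in FWA, 4 of 28 in SDC and 1 of 18 in QQS, and 7 of the 8 lay in the methylated parts. The share over all bins also counts bins with too little CHH methylation at 0 h to fall by 20 points. A share among bins of a like CHH level was not taken. The FWA bin from 41 to 140, which covers the end of exon 1 and most of intron 1, had the largest change and went from 71.7% to 29.98% (summed calls). Its change was -41.67 points (SE 6.34, adjusted p = 0.0050). The FWA bin from -159 to -60 went from 66.1% to 35.6%, and the bin across the start, from -59 to 40, went from 42.2% to 21.8%. In SDC, the bins over the tandem repeats changed most. The bin from -161 to -62 went from 69.8% over 45.3% at 24 h SL to 36.0%, with a change of -33.73 points (SE 4.06, adjusted p = 0.00096). The bin from -261 to -162 went from 62.7% over 35.6% at 24 h SL to 32.3%. Further upstream, the SDC bins from -561 to -462 and from -461 to -362 went from 43.4% to 23.0% and from 44.5% to 23.1%, the first of them lying between bins of the methylated part. The called QQS bin, from -446 to -347, had reached 28.2% at 24 h SL from 54.3% at 0 h and stood at 29.0% at 48 h SL (-25.33 points, SE 4.97, adjusted p = 0.014).

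The number of called bins fell to 4 without replicate 1 of 0 h or without replicate 1 of 48 h SL, to 5 without replicate 3 of 0 h, and to 0 with limma, by which 0.0648% of all bins were called. In CG, 0 of 40 bins and in CHG 0 of 45 bins of the 3 genes were called in the same model or by limma, with 1 and 2 bins at an unadjusted p under 0.05, and 0 bins of the whole genome were called in either context by that model (limma called 0 in CG and 25 in CHG), so the count of 0 is no feature of these genes. The bins with the highest CG level moved little. In FWA the bin from -159 to -60 had 85.3% CG methylation at 0 h and 88.2% at 48 h SL. In SDC the bin from -261 to -162 had 91.5 and 92.4% CG methylation and 83.7 and 83.6% CHG methylation. In QQS the bin from -946 to -847 had 98.8 and 96.6% CG methylation, and the bin from -746 to -647 had 84.1 and 83.5% CHG methylation.

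Single cytosines of the methylated parts with at least 10 calls at both times were compared, with the libraries of a time point summed. Most CHH cytosines were lower at 48 h SL in each gene. In FWA, 78 of 83 CHH cytosines were lower at 48 h SL and 5 were higher, and the median level went from 51.4% to 25.7%. In SDC, 188 of 226 were lower and 32 higher (32.8% to 18.2%), and in QQS 232 of 290 were lower and 46 higher (23.9% to 12.5%). CHH cytosines at 50% or more went from 46 to 6 in FWA, from 60 to 9 in SDC and from 52 to 11 in QQS. CG cytosines were spread to both sides in SDC, with 25 of 51 lower and 26 higher. In FWA, 10 of 31 CG cytosines were lower and 20 higher, and in QQS 36 of 55 were lower and 15 higher. All 55 CG cytosines of QQS were at 50% or more at both times. CHG cytosines were lower in 9 of 12 cases in FWA, 24 of 47 in SDC and 35 of 55 in QQS. The others, 3, 23 and 20, were higher. The CHG median went from 30% to 20.2% in FWA, from 70% to 69.2% in SDC and from 61.8% to 53.6% in QQS. Cytosines of a read are not independent, so these counts are a description.

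**Figure D4:**
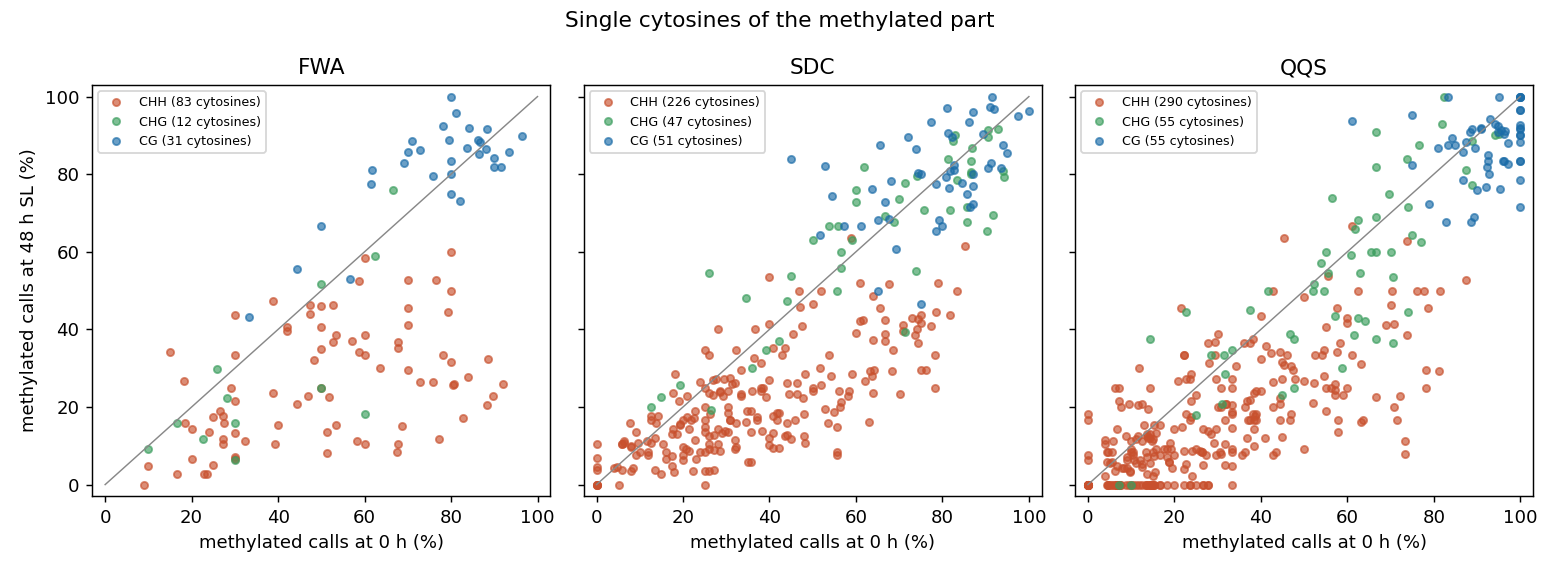
Level of each covered cytosine of the methylated part at 48 h SL (%) against its level at 0 h (%), coloured by context, each time summed over its 3 libraries; the line marks equal levels. CHH cytosines lie mostly below the line (78 of 83 in FWA, 188 of 226 in SDC, 232 of 290 in QQS). CG cytosines lie near the top, mostly above the line in FWA (20 of 31), on both sides in SDC and mostly below it in QQS (36 of 55).

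CHH sites were then split by sequence, since CMT2 is known to favour CAA and CTA. At 0 h, CAA and CTA were at 44.8% in QQS against 21.2% at other CHH sites, at 42.3% against 35.1% in SDC, and at 52.2% against 52.3% in FWA, so that the bias was large in QQS, small in SDC and not seen in FWA. Both classes fell in each gene. In FWA, CAA and CTA went to 31.4% and other sites to 27.4%, which left 60.3% and 52.4%. In SDC they went to 28.3% and 17.9%, which left 66.9% and 50.9%. In QQS they went to 31.6% and 11.1%, which left 70.5% and 52.4%. CAA and CTA sites thus kept a larger share of their level in each gene. The log2 ratio of the classes rose by 0.21 in FWA, 0.39 in SDC and 0.43 in QQS, with no overlap between the libraries of 0 h and 48 h SL (exact permutation tests, p = 0.1 each for 3 against 3, and p = 0.031, 0.0022 and 0.013 against the other 12 libraries).

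The repeats of SDC were compared with the rest of its methylated part. In the repeats, CHH methylation was 61.6% ± 5.4 in dry seeds, 55.5% ± 3.8 after chilling, 51.8% ± 7.0 after 6 h of light, 39.3% ± 5.8 after 24 h and 32.04% ± 1.4 after 48 h (SD, n = 3). Outside them it was 32.2% ± 1.2 in dry seeds, 26.2% ± 3.2 after 24 h and 19.0% ± 2.3 after 48 h of light (SD, n = 3). The log2 ratio of repeats to the rest fell from 0.93 at 0 h to 0.58 at 24 h SL, without overlap of the libraries (exact permutation test, p = 0.1, the smallest possible), and was 0.76 at 48 h SL, where it overlapped with 0 h. CG methylation of the repeats was 89.2% and then 89.9% at 48 h SL. CHG methylation of the repeats was 85.5, 82.1 and 80.3% in dry seeds and 79.96, 80.1 and 77.7% after 48 h of light, without overlap, unlike that of the whole methylated part, and it was 77.1% ± 1.3 (SD, n = 3) at 24 h SL, also without overlap with dry seeds (exact permutation tests, p = 0.1 each). FWA repeats, which make up most of its methylated part, went from 49.4% ± 2.4 to 27.9% ± 1.6 in CHH (SD, n = 3). Whether reads from near-identical copies were placed at the right copy was not tested.

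CHH methylation was lower at the end on both strands of SDC (38.8 to 22.2% on the plus and 35.9 to 20.25% on the minus strand) and of QQS (28.1 to 17.0% and 27.0 to 16.9%), with no overlap between 0 h and 48 h SL. In FWA the minus strand went from 55.3% ± 5.2 to 25.7% ± 4.0 and the plus strand from 45.1% ± 0.7 to 36.4% ± 11.1 (SD, n = 3). The minus strand at 48 h SL was below all other 12 libraries. The plus strand overlapped, at 44.4, 45.1 and 45.8% in dry seeds and 48.2, 34.8 and 26.3% after 48 h of light (exact permutation test, p = 0.4 for 3 against 3). The log2 ratio of minus to plus strand was 0.29 at 0 h and -0.47 at 48 h SL, but the 3 libraries of 48 h SL were spread and overlapped with those of 0 h (exact permutation test, p = 0.2 for 3 against 3 and p = 0.013 against the other 12). The plus strand was read less, with 79 to 543 CHH calls per library against 233 to 1088 on the minus strand.

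Timing was examined at 24 h SL, when the radicle had emerged. CHH methylation of the whole region was called in 0 of 3 genes at 24 h SL against 0 h, where 0.0559% of all regions were called lower, and limma also called 0, although SDC had an unadjusted p of 0.028 (-4.31 points). The CHH to CG ratio in the methylated part had changed by -0.46 on the log2 scale in SDC, without overlap between libraries, and by -0.21 in FWA and -0.18 in QQS, with overlap. The difference between FWA and SDC was tested as the log2 ratio of their CHH levels, which was 0.28 higher at 24 h SL than at 0 h with overlapping libraries (exact permutation test, p = 0.2), so that different timing was not shown. At 6 h SL the FWA region stood at 7.0% ± 0.96 (SD, n = 3), above the 3 libraries of 0 h but not past the test (adjusted p = 1.0 by the quasi-binomial model). Over the 5 time points together, CHH methylation was called as changed in 3 of 3 genes (adjusted p = 0.0034, 0.0055 and 0.0020 for FWA, SDC and QQS), where 37.7% of all regions were called. With limma only QQS was still called (adjusted p = 0.061, 0.063 and 0.045). The deposited lists of CHH regions changing over the time series, which carry no direction and hold 22441 regions in all, had 1 region in FWA from -166 to 334, 4 in SDC and 1 in QQS from -200 to -84. The list of 14888 CG regions also had regions at each gene, 1 in FWA from -4 to 107, 2 in SDC from -902 to -438 and from -111 to 238, and 1 in QQS from 305 to 471. The list of 10655 CHG regions had 1, 1 and 2. In each context the deposited list was longer than the set the study reported. The study dropped regions whose largest difference was under 20 points, so a listed region need not be among those it reported.

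The genes around the 3 members and the relatives of FWA were followed in the same fit. Among the 8 nearest or overlapping genes, CHH methylation was called lower in 3 and higher in 4, where 24.1% of all regions were called lower and 31.5% higher. The pseudogene AT3G30722, which lies 340 bases from QQS, went from 21.4% to 16.2% in CHH and from 96.3% to 89.6% in CG (adjusted p = 0.0025 and 0.00037). It was the only neighbour called in CG, where 6.47% of all regions were called lower. AT3G30724, the pseudogene on the other side of QQS, went from 8.75% to 6.04% in CHH, and STY8 beside SDC, which encodes a protein kinase, from 2.84% to 1.83%. The 4 called higher were at 0.386 to 0.522% at 48 h SL, within the range of the background. MSH3 (a mismatch repair gene) overlaps the FWA region on the other strand and AT2G17695 that of SDC, so cytosines of both strands were counted for each pair. MSH3 was the only neighbour called in CHG, from 0.117% to 0.434% (adjusted p = 0.044), where 0.323% of all regions were called higher.

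Of the 15 other HD-ZIP IV genes, which include the epidermal regulators GL2, ATML1 and PDF2, CG methylation was called in 0 (6.47% of all regions were called lower and 0.548% higher) and CHH methylation was called lower in 2, where 24.1% of all regions were. These were HDG9, from 6.26% to 4.77%, and HDG10, from 9.53% to 5.43% (adjusted p = 0.026 and 0.00013). CHH methylation was called higher in 9, where 31.5% of all regions were, all at 0.476 to 0.905% at 48 h SL, where the background was 0.334 to 0.690%, and its part in the result was not tested. CHG methylation was called higher in 1, HDG2, from 0.155% to 0.567% (adjusted p = 0.048), where 0.323% of all regions were called higher. MRD1 and BNS, the second of which becomes methylated and silent in ddm1 mutants, had 0.293% and 0.344% CHH methylation at 0 h and were not called in any context.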

How the data were processed

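MethylC-seq was done on 15 libraries, each from 600 ng of DNA with 0.5% lambda DNA added. According to the submitters' processing notes and the study's methods, reads were trimmed with Trim Galore 0.4.2, aligned to TAIR10 with Bismark 0.16.3 and deduplicated. The authors deposited counts of methylated and unmethylated calls per cytosine and library, neither normalized nor pooled. All 42859750 positions matched cytosines of the TAIR10.1 sequence, and every column was matched to 1 library by its name. Deposited lists of regions changing over time hold coordinates only.

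A level is methylated calls as a percentage of methylated plus unmethylated calls. Counts were tested in a quasi-binomial model with 1 mean per time point, dispersion moderated as in limma with a floor of 1, and Benjamini-Hochberg adjustment over all gene regions (at least 20 calls in every library) or all 100-bp bins (at least 3 cytosines and 10 calls). Regions were called at adjusted p below 0.05, and bins also needed a difference of 20 points. Single values were compared by exact two-sided permutation tests. The steps ran in Python 3.11.15 with numpy 2.4.6, scipy 1.17.1 and limma 3.58.1, and the model was tested on simulated data.

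The members, lists and tests were chosen with earlier results of these data known. Bins were named if called, if highest in a context, or if over direct repeats. Reads carry no molecular identifiers, so intervals cover counting error and the spread between libraries only. Alternatives were limma on logit levels, other minimum calls, equal weights, bin sizes, the upstream and body parts alone, background subtraction, a replicate block, and leaving out each library. Libraries of the same number in different groups did not deviate together (correlations -0.098 to 0.116 over 30 pairs), so the numbers were not used as pairs.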

Additional observations from a re-analysis of the deposited data

How the results depend on the processing

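Of 516 alternative values for the 3 genes, 453 kept their side of the threshold without turning direction (or, for values without a test, stayed within 1 SD), 22 lost and 5 gained a call, 15 moved, and 21 turned direction, 0 of which were called in either setting. The 48 h SL CHH calls of SDC and QQS held with limma and without any 1 library. The FWA changes were small over a long region and depended on the settings. FWA CG at 48 h SL was not called with limma (5.03 points, adjusted p = 0.25), with cytosines of at least 4 calls (3.29), with every cytosine equal (0.35), with background subtracted (4.76), upstream only (9.43) or in the body only (3.80), and ranged from 3.89 to 6.14 points when 1 library was left out. FWA CHH at 48 h SL was not called with limma (-1.14 points), upstream only (-0.65) or in the body only (-1.25), and ranged from -1.44 to -0.93 without 1 library. Over the 5 time points, the largest differences of FWA CHH (2.88 points) and SDC CHH (7.93 points) were not called with limma, and FWA CG ranged from 4.31 to 6.51 points without 1 library, with a call in 2 of 15 such fits. QQS CG was called upstream only (-6.77 points) and ranged from -7.81 to -2.43 without 1 library. SDC CHH at 24 h SL was called with every cytosine equal (-4.24 points, adjusted p = 0.010), and at 48 h SL was not called in the body only (-3.19). The log2 CHH to CG change was -1.06 in FWA with at least 4 calls per cytosine and -0.92 in the SDC body. Called CHH bins were 0 with limma, 4 with 200-bp bins and 4 to 6 without 1 library. In the methylated parts, alternatives added after seeing the data moved FWA CHH to -34.67 points with at least 4 calls in every library (45 of 120 cytosines), SDC CG to 2.24 points with every cytosine equal and QQS CG to -7.55 points with at least 4 calls. Leaving out 1 library gave -6.40 to -4.81 points for QQS CG and -3.82 to 0.79 points for SDC CHG. The cause of these differences was not tested.

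Values of uncalled results that turned direction were SDC CG at 48 h SL upstream only (-0.44 points) and SDC CHG upstream only (-2.02), FWA CHG with every cytosine equal (-0.40), and at 24 h SL SDC CG with at least 4 calls per cytosine (-0.19), FWA CHH with at least 4 calls (-2.49) and, with every cytosine equal, FWA CG (2.22), FWA CHG (-0.18) and FWA CHH (-0.25). Without 1 library, SDC CG at 48 h SL ranged from -4.14 to 4.81 points and SDC CHG from -3.63 to 4.72, and at 24 h SL FWA CG ranged from -1.48 to 1.35, FWA CHG from -0.50 to 0.91, FWA CHH from -0.22 to 0.45, SDC CG from -0.17 to 4.72 and SDC CHG from -3.04 to 0.23. In the methylated part, SDC CG was between -1.38 and 1.33 points without 1 library and at -0.96 points with at least 4 calls per cytosine.

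The numbers of the replicates did not pair the libraries: 1 of 30 same-number pairs and 2 of 60 other pairs had a correlation of deviations over 0.1. A fit with the replicate number as a block changed no call (48 h SL against 0 h, adjusted p = 0.049 for FWA CHH, 0.0028 for SDC CHH, 0.0016 for QQS CHH and 0.047 for FWA CG). For the CHH to CG ratio, the blocked changes over whole regions were -0.63, -0.83 and -0.59, with an exact sign-flip permutation p of 0.25, the smallest possible for 3 pairs.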

Other observations

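The coding sequences of FWA and SDC had 10.6% ± 2.1 and 6.96% ± 1.4 (SD, n = 3) CG methylation at 0 h, against 0.164% and 0.439% CHG methylation. Bins from the coding sequence on with a CG level of at least 50% over all 15 libraries were picked, so their high CG level is not a finding. They had as few as 13 CG calls per library in FWA and 7 in SDC. In FWA, 2 bins between 2841 and 3740 had 53.8% ± 2.5 CG methylation in dry seeds and 47.3% ± 7.4 after 48 h of light (SD, n = 3), with overlapping libraries and 0.0853% CHH methylation at 0 h. In SDC, the bin from 1739 to 1838 had 59.1% ± 9.5 and then 64.4% ± 14.1 (SD, n = 3) CG methylation, also with overlap. QQS had 0 such bins.

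CHG methylation at CCG was lower than at CAG and CTG in SDC and QQS. At 0 h, CCG was at 37.1% ± 4.8 in SDC and CAG and CTG together at 73.8% ± 0.97 (SD, n = 3). In QQS the values were 40.5% ± 5.6 and 61.7% ± 4.4 (SD, n = 3), and in FWA, which has 7 CCG cytosines, 38.8% ± 0.54 and 36.9% ± 5.8 (SD, n = 3). The mean at CCG after 48 h of light was 37.2% in SDC, 39.6% in QQS and 38.4% in FWA, with overlap between the times. Among CHH sites with the libraries of 0 h summed, CCC was the lowest class in SDC (22.5%), in QQS (8.96%) and in FWA (35.8%).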
